A study of Mus musculus with 6 samples.

Results

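The genes examined here encode the nuclear subunits and some assembly factors of the 5 complexes of the mitochondrial respiratory chain. They were chosen by symbol among the protein-coding genes of GENCODE M21, taking every symbol that starts with Nduf, Uqcr, Atp5 or Cox4 to Cox8, together with Sdha, Sdhb, Sdhc and Sdhd. The rule found 94 of the 21938 protein-coding genes on chromosomes 1 to 19, X and Y. Complex I held 46 of them, of which 8 are assembly factors, complex II held 4, complex III held 8, complex IV held 18 and complex V held 18. The 94 records carried 93 symbols, because Atp5o is annotated as a pair of separate genes.

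Open chromatin was mapped by ATAC-seq, in which a transposase cuts and tags accessible DNA, in 3 samples of intestinal crypts from wild-type (WT) mice and 3 from Arid3a conditional knockout (cKO) mice. Arid3a encodes a transcription factor with an affinity for AT-rich DNA. The cKO animals carried loxP-flanked Arid3a alleles and a tamoxifen-inducible Cre driven by Villin, so deletion is restricted to the epithelium and other cells in the sample keep the gene. Both genotypes were given tamoxifen daily for 3 days, and crypts were taken 1 month after the first dose. Further alleles of the WT animals, their age and their sex are not given in the sources used here.

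Complexes I, III and IV pass electrons from NADH to oxygen and pump protons across the inner mitochondrial membrane, complex II feeds in electrons from succinate, and complex V, the ATP synthase, lets the protons back through to make ATP. A few catalytic subunits are encoded by mitochondrial DNA, and the rest, described here, are nuclear genes whose products must be made in fixed proportion. Their promoters are known targets of a small set of factors, among them NRF1, the ETS factor GABP, YY1 and estrogen-related receptors (ERR). Crypts hold the stem cells and the dividing progenitors of the intestinal lining, and oxidative metabolism is known to support stem cell function there.

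The values were 6 lists of called peaks of 40492 to 58297 peaks each, and no read counts were used. A promoter peak was a peak whose summit lay between 1000 bp upstream and 100 bp downstream of any annotated transcription start site (TSS) of a gene. Its level was the percentile of its fold enrichment within its own list, where 100 is the highest fold of that list. Among lineage markers, a promoter peak was called in all 6 lists for 5 of 10 epithelial, 0 of 6 leukocyte, 2 of 5 stromal or endothelial, 3 of 8 muscle and 0 of 5 testis genes. When any base of a peak in the window was accepted, the epithelial count rose to 10 of 10 and the others stayed the same. By summit Cdx1 was called in no list and Krt8 in 3, at percentiles of 2.87 to 10.9. The stromal pair was Col1a1 and Pdgfra, and the part of cells other than epithelium in the results below was not tested. The promoter of Arid3a itself was called in all 6 lists, at percentiles 64.7, 61.1 and 54.4 in WT and 46.5, 56.7 and 43.7 in cKO. The genotypes overlapped there, and a promoter peak does not check the deletion of downstream exons.

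Most promoters of respiratory genes carried a peak in crypts. A promoter peak was called in all 6 lists for 71 of the 94 genes (75.5%), against 44.6% of all protein-coding genes, and in no list for 11 (11.7%), against 38.3%. Any single list held 75 to 82 of them. By complex, 36 of 46 genes of complex I, 4 of 4 of complex II, 6 of 8 of complex III, 12 of 18 of complex IV and 13 of 18 of complex V were called in all 6. When any base of a peak in the window was accepted in place of the summit, the count over all complexes rose to 84 (89.4%), against 58.6% of all genes. The 23 genes not called in all 6 lists fell into 4 kinds, described next: a summit just inside the gene, a promoter duplicated on another sequence of the genome build, a tissue-restricted isoform, and a second record of the same symbol.

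In 13 genes a peak covered an annotated start in every list, but its summit lay too far inside the gene in at least 1 list. They were Ndufa8, Ndufa9, Ndufa12, Ndufb2, Ndufb7, Ndufb10, Ndufc2 and Ndufs4 of complex I, Uqcrb of complex III, Cox5a of complex IV, and Atp5g2, Atp5j2 and Atp5l of complex V. Across these genes there were 37 pairs of gene and list without a call, and in all 37 the peak covered a start while its summit lay 104 to 362 bp downstream of the nearest one, with a median of 160 bp. The peaks were often among the highest of their list, with a percentile above 80 in 26 of the 37 pairs.

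Uqcrb, a small subunit of complex III, had its summit 61, 83 and 111 bp downstream in WT 1, 2 and 3 and 248, 236 and 130 bp downstream in cKO 1, 2 and 3. It was therefore called in 2 WT lists and in no cKO list, although the percentile of its peak was 91.7, 99.3 and 98.5 in WT and 99.6, 97.1 and 99.88 in cKO. Ndufc2, an accessory subunit of complex I, had its summit 16 and 17 bp upstream of the start in WT 2 and 3, but 359 bp downstream in WT 1 and 216, 314 and 362 bp downstream in the cKO lists. Ndufs4, an accessory subunit that stabilises the electron-input arm of complex I, was called in WT 2 alone, with the summit 52 bp downstream. In the other lists its summit lay 160 to 209 bp downstream and the peak stood at percentiles 78.4 to 97.6. Of the 37 missing calls, 14 were in WT lists, numbering 7, 2 and 5, and 23 were in cKO lists, numbering 9, 6 and 8. The lowest cKO count lay under the highest WT count, and whether summits moved with genotype was not tested. Over all protein-coding genes, 11398, 12038 and 12111 were called in the WT lists and 12018, 11740 and 11739 in the cKO lists. Summits outside the window were not counted over all genes.

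**Figure D1:**
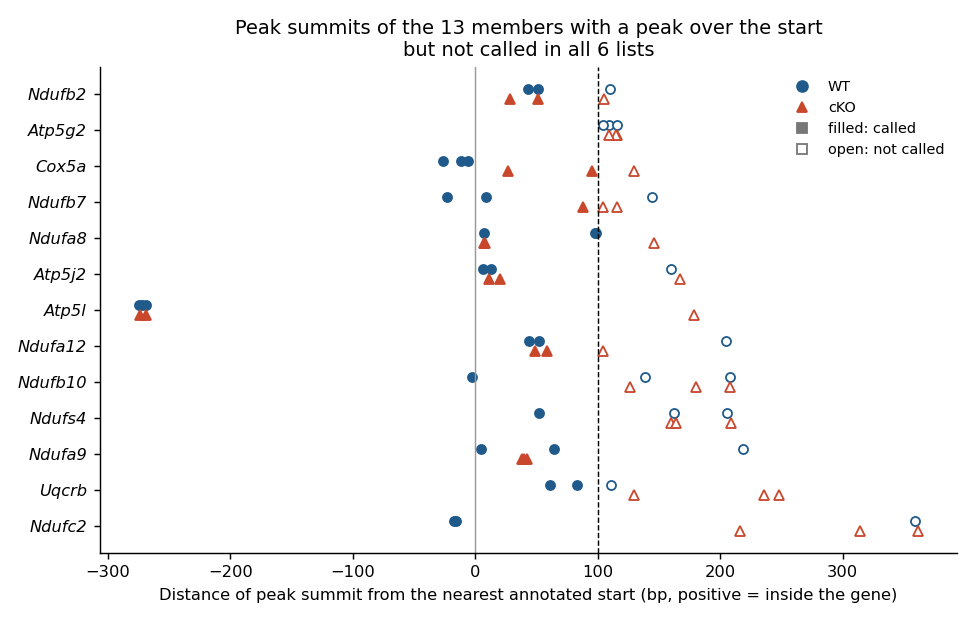
Distance in bp of the peak summit from the nearest annotated start, for the 13 genes with a peak over the start but without a call in all 6 lists. Circles are WT lists and triangles cKO lists, filled where the summit lay inside the promoter window, and the dashed line is the window's edge at 100 bp: the open symbols lie 104 to 362 bp inside the gene.

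Atp5g2, which encodes the same c-ring protein of ATP synthase as Atp5g1 and Atp5g3, was never called by summit. Its peak was 1344 to 1832 bp wide, covered a start in every list, and had its summit 104 to 116 bp past the nearest start. The percentile was 88.5, 95.8 and 93.1 in WT and 91.4, 93.1 and 89.98 in cKO. Ndufa12 and Ndufb2, accessory subunits of complex I, missed the call in WT 1 and cKO 3, where their summits lay 205 and 104 bp downstream for Ndufa12 and 110 and 105 bp for Ndufb2. Ndufb10 stood apart by its level, at percentiles from 27.6 to 55.5, with a call in WT 1 alone. The other members of this kind, Ndufa8, Ndufa9, Cox5a and Atp5l, were called in 5 lists, Atp5j2 in 4 and Ndufb7 in 3.

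Atp5a1, Ndufs3 and Uqcrc1 had no peak in any list, although they encode, in this order, the alpha subunit of ATP synthase, a core subunit of complex I and a core protein of complex III. Each lay in a stretch without any peak in any list, 516 kb long around Atp5a1, 205 kb around Ndufs3 and 169 kb around Uqcrc1, and in each stretch 6 protein-coding genes start. The authors aligned reads to the full set of GRCm38 sequences, which adds corrected versions of some regions, called patches, beside the chromosomes. For these 3 genes the sequence within 50 bp of every annotated TSS was found letter for letter on a patch as well, on MG3700_PATCH, MG191_PATCH and MG117_PATCH. The other 91 members had no such copy, and 84 of them had a peak in the window in all 6 lists.

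The same held across the genome. Of 305 protein-coding genes with every TSS copied on a patch, 302 (99.0%) had no peak in the promoter window in any list, against 7094 of 21536 (32.9%) without a copy. The lists held 25 to 30 peaks each on patch sequences, and how reads matching both places were handled was not tested. No level was taken for Atp5a1, Ndufs3 and Uqcrc1, and none of the 3 entered the comparison of genotypes. The 100 bases before the RefSeq starts of Ndufs3 (GRCm38.p6, chr2:90904722-90904821, minus strand) and Uqcrc1 (chr9:108936548-108936647, plus strand) are shown because each occurs once more, unchanged, on its patch.
Ndufs3: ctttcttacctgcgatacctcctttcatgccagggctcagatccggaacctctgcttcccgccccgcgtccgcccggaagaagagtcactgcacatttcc
Uqcrc1: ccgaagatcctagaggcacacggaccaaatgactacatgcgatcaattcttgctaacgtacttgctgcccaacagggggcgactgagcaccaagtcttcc

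Several complex IV subunits exist as a ubiquitous isoform and a copy used in particular tissues, and the crypt lists separated most of these pairs. Of the 8 restricted isoforms, 6 had no promoter call in any list: Cox4i2, known from lung, Cox6a2 and Cox8b, known from heart and skeletal muscle, Cox7b2 and Cox8c, known from testis, and Ndufa4l2, known as a gene induced by low oxygen. Only Cox6a2 had any peak reaching its window, 1 weak peak in WT 3 at percentile 7.83 with its summit 173 bp downstream. Their ubiquitous partners Cox4i1, Cox6a1, Cox7b, Cox8a and Ndufa4 were called in all 6 lists, at mean percentiles of 88.8, 85.2, 28.5, 96.9 and 92.9. Ndufa4, named as a complex I subunit and counted there by its symbol, is now known as a part of complex IV.

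The remaining pairs did not separate in this way. Cox7a1, the muscle isoform of the pair with Cox7a2, was called in every list at percentiles 80.1, 86.8 and 85.2 in WT and 76.8, 89.3 and 82.5 in cKO. Cox7a2 stood higher in each of the 6 lists, from 96.2 to 99.7. Cox6b2, known from testis, was called at 55.5, 58.1 and 59.7 in WT and 61.3, 65.1 and 81.4 in cKO. It again lay under its partner Cox6b1, at 87.7 to 97.5, in each list. The median summit of Cox6b2 (chr7:4752685) was nearest to an annotated start at 4752528, inside the gene from the first coding-transcript start at 4753094. With starts of protein-coding transcripts alone, Cox6b2 was not called in all 6 lists. Muscle and testis marker promoters were at 3 of 8 (Acta1, Ckm and Tnnt2) and 0 of 5 in all 6 lists, and their part in these calls was not tested. Among the 3 c-ring genes, Atp5g1 stood at a mean of 95.6 ± 4.22 and Atp5g3 at 79.5 ± 6.27 (SD over 6 lists). Atp5g1 was the higher in each of the 6.

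The restricted isoforms without a call had a lower median CpG content than the called members, with overlapping ranges. A high CpG content is known from promoters that are open in most tissues. From 250 bp before to 50 bp after the first coding-transcript start, the 71 called members had a median of 19 CpG sites and a median observed to expected ratio of 0.842, and the 6 isoforms without a call had 7.5 sites and 0.336. The ratios ran from 0.217 to 1.202 in the called members and from 0.115 to 0.564 in the isoforms without a call, and 10 of the 71 called members lay within the isoforms' range. For scale, all genes called in all 6 lists had a median ratio of 0.76 and genes without any peak in the window 0.18. Cox7a1 and Cox6b2, the restricted isoforms with a peak, had 6 and 10 sites and ratios of 0.304 and 0.432, and were among these 10. The summit of Cox6b2 was nearest to another annotated start than the one measured here. Of the 93 symbols, 74 are in the RefSeq promoter table for GRCm38.p6. The 250 bases before the RefSeq start are shown for a pair with a closed copy and a pair with an open copy, with CpG sites in capitals: Cox8a (chr19:7217617-7217866, minus strand), Cox8b (chr7:140900447-140900696, minus strand), Cox7a2 (chr9:79759854-79760103, minus strand) and Cox7a1 (chr7:30183921-30184170, plus strand).
Cox8a: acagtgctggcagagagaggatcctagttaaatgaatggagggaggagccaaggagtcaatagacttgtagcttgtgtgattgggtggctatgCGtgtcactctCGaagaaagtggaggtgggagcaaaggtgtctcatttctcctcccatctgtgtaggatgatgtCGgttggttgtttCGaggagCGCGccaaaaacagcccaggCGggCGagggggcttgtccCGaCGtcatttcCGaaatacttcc
Cox8b: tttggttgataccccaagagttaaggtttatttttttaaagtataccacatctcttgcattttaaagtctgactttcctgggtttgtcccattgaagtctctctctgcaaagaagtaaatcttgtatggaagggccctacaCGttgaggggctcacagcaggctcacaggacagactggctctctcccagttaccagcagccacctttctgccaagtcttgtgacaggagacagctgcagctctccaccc
Cox7a2: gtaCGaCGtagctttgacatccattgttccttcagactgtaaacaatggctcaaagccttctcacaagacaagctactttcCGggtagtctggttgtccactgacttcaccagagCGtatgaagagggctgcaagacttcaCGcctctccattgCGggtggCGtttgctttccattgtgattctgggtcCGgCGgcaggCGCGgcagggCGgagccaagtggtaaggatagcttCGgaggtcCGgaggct
Cox7a1: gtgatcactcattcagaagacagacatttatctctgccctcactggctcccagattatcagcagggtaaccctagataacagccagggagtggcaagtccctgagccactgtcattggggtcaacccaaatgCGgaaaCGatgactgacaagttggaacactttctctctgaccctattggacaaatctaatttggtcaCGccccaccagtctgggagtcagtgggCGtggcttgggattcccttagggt
These stretches held 11 CpG sites before Cox8a and 1 before Cox8b, and 14 before Cox7a2 and 4 before Cox7a1.

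**Figure D2:**
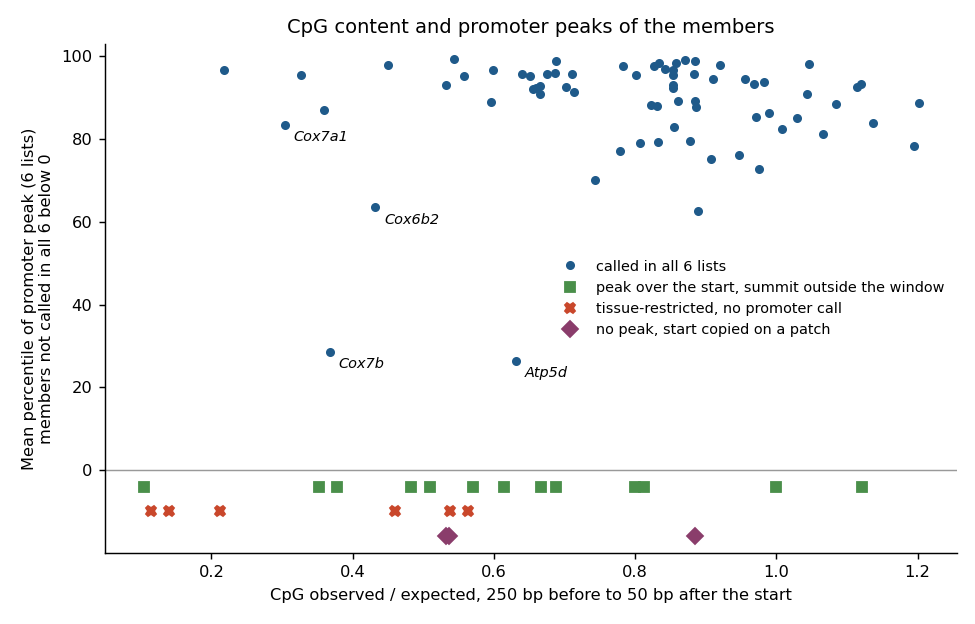
CpG observed to expected ratio of the promoter (horizontal) against the mean percentile of the promoter peak over 6 lists (vertical), 1 point per gene, with genes not called in all 6 drawn below 0 by kind. The restricted isoforms without a call lie at ratios of 0.115 to 0.564, where Cox7a1, Cox6b2 and Cox7b have a peak.

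The last gene without a call is the second Atp5o record (chr16:91684398-91926982), which had no peak in any list. The first record (chr16:91925214-91931687), the oligomycin sensitivity subunit of ATP synthase, was called in all 6 at a mean percentile of 88.3 ± 2.24.

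Where a promoter was called, its peak was usually among the stronger of its list. Over the 71 genes the median of the mean percentile was 92.4, against 85.8 over the 9777 protein-coding genes called in all 6 lists, and 51 of the 71 (71.8%) were above that all-gene median. The range of the highest 25% of all genes held 30 of the 71 (42.3%) and that of the lowest 25% held 5 (7.04%). In the single lists, the median of the members was 90.7, 92.1 and 93.6 in WT and 92.5, 92.6 and 93.0 in cKO, each above the all-gene median of the same list, which was 84.1 to 87.7. In fold enrichment over background, the members' median was 10.6 to 14.3 by list and that of all genes 9.51 to 12.5. In WT 2 the peaks were at 71 different summits, so no pair of members shared a promoter peak in that list. The other lists were not counted in this way.

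The medians of the complexes lay close together, at 92.5, 94.7, 90.7, 90.1 and 90.9 for complexes I to V, while the range within a complex was wide. Complex I ran from Ndufaf3 at 62.7 to Ndufaf7 at 99.1, complex II from Sdhb at 87.0 to Sdha at 98.9, complex III from Uqcr11 at 70.2 to Uqcrfs1 at 98.2, complex IV from Cox7b at 28.5 to Cox7c at 99.4, and complex V from Atp5d at 26.4 to Atp5f1 at 96.8. The SD over the 6 lists had a median of 3.08 points and a maximum of 14.1, at Atp5d. No pair of complexes was tested against each other, since genes of 1 complex are not replicates.

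**Figure D3:**
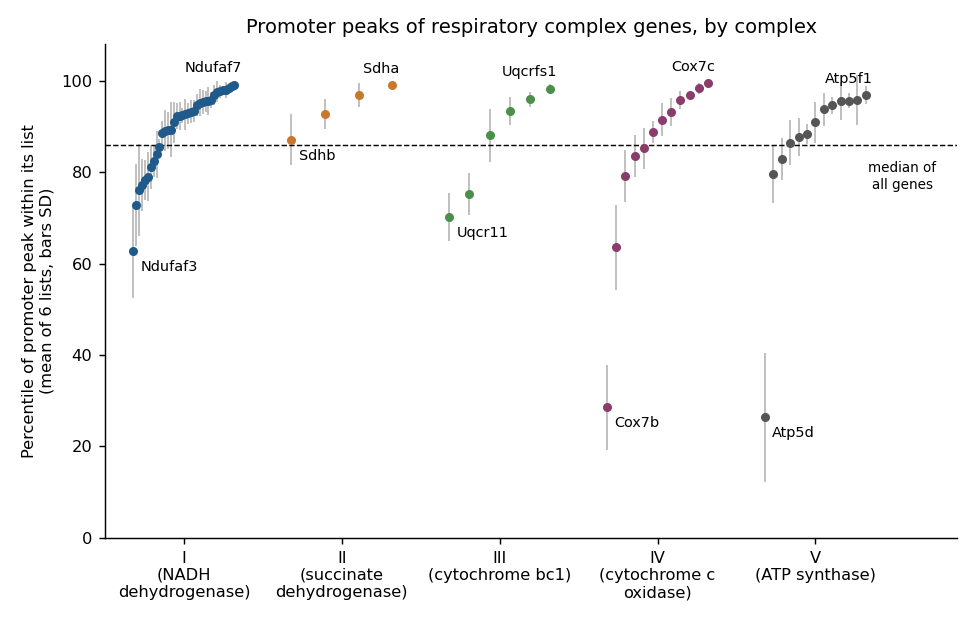
Mean percentile of the promoter peak over 6 lists, with SD as bars, for the 71 members called in all 6, sorted within complexes I to V. The dashed line is the median of all protein-coding genes called in all 6 lists, 85.8, and only Cox7b and Atp5d lie under 60.

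The highest promoter was that of Cox7c, a small complex IV subunit, at 98.1, 99.8 and 99.7 in WT and 99.7, 99.7 and 99.5 in cKO. It was followed by Ndufaf7, a methyltransferase that modifies a core subunit during complex I assembly, at 99.1 ± 0.73, by Sdha, the flavoprotein of complex II, at 98.9 ± 0.56, by Ndufv1, the NADH-binding core subunit of complex I, at 98.9 ± 0.61, and by Ndufaf4, another complex I assembly factor, at 98.4 ± 1.08. The spread of these 5 genes over the lists overlapped, so their order is not resolved. They come from 3 complexes and include both catalytic subunits and assembly factors.

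The lowest was Atp5d, the delta subunit in the rotor stalk of ATP synthase, at 47.4, 36.7 and 29.2 in WT and 15.4, 20.05 and 9.57 in cKO. Cox7b stood next, at 35.3, 26.5 and 26.8 in WT and at 21.4 and 43.3 in cKO 1 and 2, with cKO 3 the lowest, and the SDs of the 2 genes overlapped. Both were far below the rest: the next were Ndufaf3 at 62.7 ± 10.2, Cox6b2 at 63.5 ± 9.33 and Uqcr11, a small complex III subunit, at 70.2 ± 5.24. The mean fold of the peak was 4.33 at Atp5d and 4.47 at Cox7b, against 17.5 at Cox7c.

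Within complex I, the 6 called core subunits, which bind NADH, flavin and most iron-sulfur clusters, had a median of 92.0, from Ndufs1 at 81.2 to Ndufv1 at 98.9. The 22 called other subunits had a median of 92.5 and ran from Ndufa7 at 72.8 to Ndufs5 at 97.9. All 8 assembly factors were called, with a median of 94.5, and they held both ends of complex I, Ndufaf7 and Ndufaf3. In complex II, Sdhc and Sdhd, the membrane anchors, stood at 96.8 ± 2.66 and 92.7 ± 3.37 and Sdhb, the iron-sulfur subunit, at 87.0 ± 5.57. In complex III, Uqcrfs1, the Rieske iron-sulfur protein, stood above Uqcrc2 at 95.9, Uqcr10 at 93.4, Uqcrq at 88.0, Uqcrh at 75.3 and Uqcr11. In complex V, the catalytic beta subunit Atp5b stood at 87.7 and the gamma subunit Atp5c1, the central shaft, at 93.7.

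No respiratory gene passed the adjusted threshold for a difference in promoter level between cKO and WT. limma on the percentiles of all 9777 genes called in all 6 lists, with Benjamini-Hochberg adjustment, called 0 of the 71 members and 0 of all genes (0.0%), and the lowest adjusted p of a member was 0.65. An unadjusted p under 0.05 was reached by 4 of the 71 (5.63%), against 6.14% of all genes. Without cKO 2, 15 of 71 members and 2317 of 9955 genes had an unadjusted p under 0.05, and the lowest adjusted p of a member in limma was 0.145. The median difference of the members, cKO minus WT, was −0.57 points, and that of all genes −1.48 points, and both turned positive, to 1.25 and 0.54, when peaks were ranked by −log10 p instead of fold. When fold was ranked among promoter peaks alone, the members' median turned to 0.02 and that of all genes was −0.77. By sign, 30 members had a higher mean in cKO and 41 (57.7%) a lower one, against 64.5% lower among all genes. In bulk crypts, fewer cells with an open promoter and a less open promoter per cell cannot be told apart.

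Without overlap between genotypes, 3 of the 71 members (4.23%) were higher in every cKO list, against 2.89% of all genes, and 9 (12.7%) were lower in every cKO list, against 9.66%. The members higher in cKO were Ndufaf6, Ndufc1 and Cox6b2. Those lower were Ndufs1, Ndufv1, Ndufa6 and Ndufb4 of complex I, Uqcr11 and Uqcrfs1 of complex III, and Atp5b, Atp5c1 and Atp5d of complex V. Each share was near that of all genes. By complex, the median difference was −0.64 for complex I, 0.56 for II, −2.47 for III, 0.38 for IV and −2.78 for V, and the 6 called core subunits of complex I had a lower mean in cKO, as did 64.5% of all genes. These are counts over genes of the same 6 lists and carry no test.

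On this scale, the percentile of fold in the whole list, the largest difference was at Atp5d, whose mean percentile was 37.8 ± 9.13 (SD, n = 3) in WT and 15.0 ± 5.25 (SD, n = 3) in cKO. The lists of the genotypes did not overlap, and the difference of −22.8 points (SE 7.74) had a limma p of 0.0135 and an adjusted p of 0.65. It was −8.59 when peaks were ranked by −log10 p and −3.43 when ranked among promoter peaks alone, where Ndufa7 (−12.4), Ndufs1 (−11.3), Ndufaf3 (−6.12) and Uqcr11 (−4.50) had larger negative differences. Ndufa7, an accessory subunit of complex I, stood at 82.2, 71.9 and 82.6 in WT and 72.4, 69.1 and 58.5 in cKO, a difference of −12.2 (SE 5.84). The highest cKO list lay above the lowest WT list. Ndufaf3, an assembly factor that acts early in complex I formation, stood at 67.4, 75.7 and 62.7 in WT and 46.9, 67.8 and 55.5 in cKO, a difference of −11.9 (SE 7.19), also with overlap, which was 0.022 when peaks were ranked by −log10 p. Uqcr11 stood at 73.5, 73.9 and 74.99 in WT and 61.5, 70.8 and 66.4 in cKO. Ndufs1, the largest core subunit of complex I, stood at 85.3, 85.7 and 84.3 in WT and 75.8, 81.1 and 74.8 in cKO. Both were lower in every cKO list, by −7.87 (SE 5.33) and −7.85 (SE 4.10), and the adjusted p of these 4 genes was 0.65 in limma.

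In the other direction Cox6b2 differed most on the same scale, with means of 57.8 ± 2.13 in WT and 69.3 ± 10.6 in cKO (SD, n = 3), a difference of 11.5 points (SE 6.82). The single list cKO 3, at 81.4, lay above all others. Among promoter peaks alone its difference was 14.5, and Ndufaf1 (23.1), Cox6c (16.4), Atp5mpl (16.3) and Ndufb3 (15.2) exceeded it. Ndufaf1, an assembly factor of the membrane arm of complex I, stood at 65.0, 69.8 and 77.4 in WT and 82.3, 70.01 and 92.4 in cKO, a difference of 10.8 (SE 6.33) with overlap. Cox6c, a small complex IV subunit, stood at 73.1, 78.1 and 76.9 in WT and 83.3, 75.3 and 88.4 in cKO. Its difference of 6.28 (SE 4.84) came with overlap too. Atp5mpl, a small ATP synthase subunit, differed by 4.70 (SE 2.88) because WT 1 was at 84.8 while the other 5 lists were at 97.2 to 98.9. Ndufb3, an accessory subunit of complex I, differed by 4.25 (SE 3.16) and its genotypes overlapped. Adjusted p-values of these 5 genes were 0.65 to 0.68 in limma.

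Ndufb4, chosen after its values were seen because its p was the lowest of the members, had tight groups at 98.2, 97.9 and 97.0 in WT and 93.1, 92.6 and 93.0 in cKO. The difference was −4.82 points (SE 1.26) with a limma p of 0.00293 and an adjusted p of 0.65. Ndufaf6 and Atp5c1 were the other genes with p under 0.05 besides Atp5d, at +3.47 (SE 1.13) and −4.99 (SE 1.99) points.

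**Figure D4:**
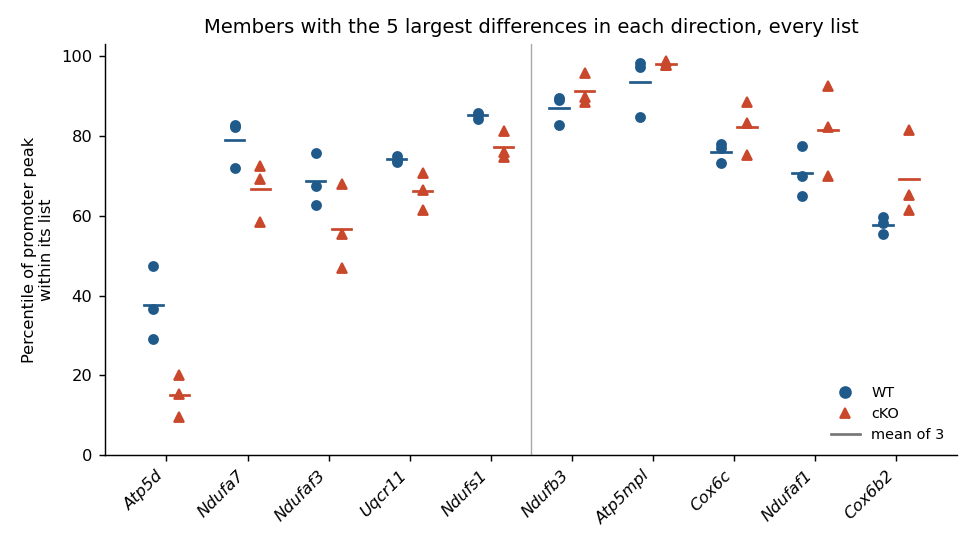
Percentile of the promoter peak in each list for the 5 members with the largest negative and the 5 with the largest positive difference (cKO minus WT) in percentile of fold in the whole list, with WT as circles, cKO as triangles and bars at the mean of 3. The genotypes do not overlap at Atp5d, Uqcr11, Ndufs1 and Cox6b2, and do at the other 6.

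The NRF1 word was more frequent, and the GC box less frequent, at the members' summits than at those of all genes. Fixed words were sought on both strands within 100 bp of the median summit of the 71 called members and of all 9777 called genes. The NRF1 word GCGCANGCG was in 17 members (23.9%, 95% Wilson interval 15.5 to 35.04), against 11.5% of all genes. The GC box GGGCGGGG, bound by SP and KLF factors, was in 8 (11.3%, 5.82 to 20.7), against 26.2%. The ETS word CCGGAAGT, which GABP binds, was in 6 (8.45%, against 7.31%), the YY1 word AAGATGGCG in 4 (5.63%, against 3.05%) and the ERR word TCAAGGTCA in 1 (1.41%, against 0.0614%). The all-gene shares of the NRF1 and ERR words lay under the members' intervals and that of the GC box above its interval. The all-gene shares of the ETS and YY1 words lay within the interval at the summit. From 250 bp before to 50 bp after the TSS, the YY1 word was in 9.86% of members (4.86 to 18.98) against 3.71%, which lay under the interval, and in whole peaks in 16.9% (9.94 to 27.3) against 7.90%, again under it. For ERR, the summit share (interval 0.249 to 7.56) rested on 1 member, Atp5g3. In the TSS window the ERR word was in 2.82% (0.776 to 9.70) against 0.225%. In whole peaks it was in 10 members (14.1%, 7.83 to 24.0) against 4.78%. Both all-gene shares lay under the interval. The median GC content of the same windows was 63.2% in the members and 66.2% in all genes, with a CpG observed to expected ratio of 0.918 and 0.857, and its part in the GC box share was not tested.

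The ARID3 words ATCAAA and ATTAAA were in 4 members (5.63%), against 4.75% of all genes. HNF4 words were in 0 of 71, which allows a share of up to 5.13% by the Wilson interval, against 0.593%, AP-1 (TGACTCA) was in 1.41% against 2.31%, CRE (TGACGTCA) in 1.41% against 2.85%, NF-Y (CCAATCA) in 5.63% against 8.07% and the TATA box (TATAAA) in 2.82% against 2.49%. None of these 6 all-gene shares lay outside the members' interval. A word in a sequence is a description, not a bound site. Intervals cover counting error only.

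**Figure D5:**
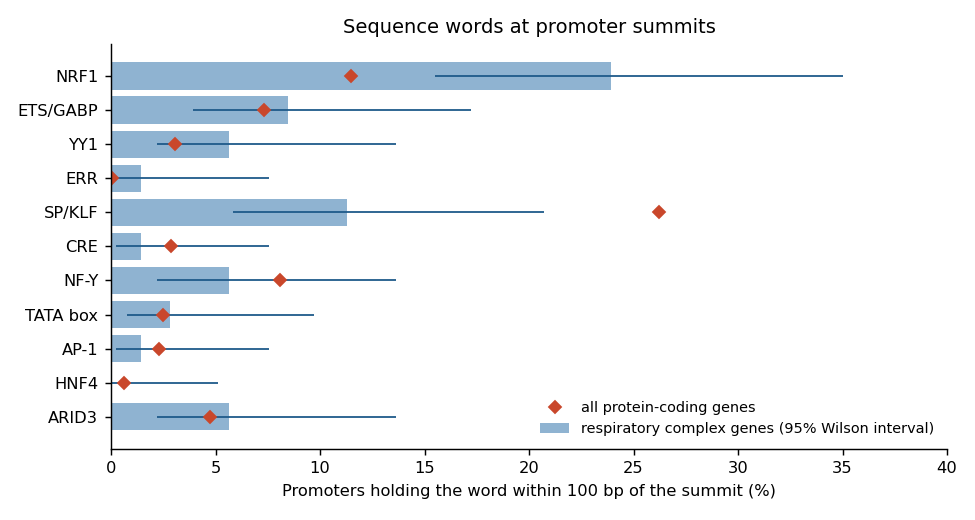
Share of promoters holding each word within 100 bp of the summit, as bars with 95% Wilson intervals for the 71 members and as diamonds for all 9777 genes. The NRF1 diamond, at 11.5%, lies under the members' interval and the GC box (SP/KLF) diamond, at 26.2%, above it. The ERR diamond, at 0.0614%, also lies under its interval, which rests on 1 member.

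The members with the NRF1 word came from complexes I, II, III, IV and V: Ndufa5, Ndufa13, Ndufaf4, Ndufaf5, Ndufb4, Ndufs5 and Ndufs6, Sdha and Sdhd, Uqcr11, Cox6c, and Atp5c1, Atp5g3, Atp5h, Atp5k, Atp5mpl and the first Atp5o record. Their median level was 92.7, against 92.3 for the 54 members without the word. Sites of 8 genes are printed with 10 bases on either side, in the direction of the gene and with the word in capitals, as examples of the word in each complex. The distance from the start varied among the 17 members, and the words of Ndufa13 lay 625 and 679 bp upstream and that of Ndufa5 142 bp upstream. On GRCm38 the regions are chr13:74350232-74350260 (Sdha, minus strand, 44 bp upstream of the start nearest to the summit), chr9:50603910-50603938 (Sdhd, minus, 112 bp upstream), chr4:24897960-24897988 (Ndufaf4, plus, 109 bp upstream), chr13:73328479-73328507 (Ndufs6, minus, 41 bp upstream), chr16:37654372-37654400 (Ndufb4, minus, 20 bp upstream), chr10:80406808-80406836 (Uqcr11, minus, 27 bp upstream), chr15:35937897-35937925 (Cox6c, minus, 98 bp downstream) and chr2:73911295-73911323 (Atp5g3, minus, 18 bp upstream).
Sdha: gcgactcggtGCGCAAGCGcagtctgtcg
Sdhd: tcgctggggtGCGCACGCGcggtggcagc
Ndufaf4: ccagatgtctGCGCATGCGcctgtgcgga
Ndufs6: gactgctgtgCGCCTGCGCcggcacttgg
Ndufb4: cctcatatccGCGCAGGCGcagatgtgcg
Uqcr11: atcgccttcaCGCATGCGCtatacgtctg
Cox6c: gccatctcccCGCGTGCGCtcttagggct
Atp5g3: agccgcaccgCGCTTGCGCgcccagcccc

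Sdha held a second NRF1 word 89 bp upstream of the same start. Some members carried words of more than 1 factor, which are shown because they stand in 1 promoter with the NRF1 word. Ndufs6 held a YY1 word 7 bp downstream of its start (chr13:73328431-73328459), Atp5g3 the ERR word 83 bp upstream (chr2:73911360-73911388) and Uqcr11 an ETS word 88 bp upstream (chr10:80406870-80406897), all on the minus strand.
Ndufs6 YY1: ggtcaccggcAAGATGGCGgcggtgctga
Atp5g3 ERR: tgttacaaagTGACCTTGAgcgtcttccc
Uqcr11 ETS: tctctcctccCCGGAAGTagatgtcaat
Atp5h held NRF1 and YY1 words as well. Ndufs6 and Uqcr11 stood among the lower promoters, at 77.1 and 70.2, Atp5g3 at 79.5 and Atp5h at 82.9. Ndufaf4, with NRF1 and GC box words, stood at 98.4, and Ndufa5, with NRF1 and AP-1 words, at 95.5.

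Many members had a neighbour that starts beside them in the opposite direction. Another protein-coding gene started on the opposite strand within 1000 bp upstream in 28 of the 71 called members (39.4%), against 18.6% of all called genes. Several of these neighbours also act in mitochondria or in their control, as background: Sdhd faced Timm8b, an import chaperone of the intermembrane space, Ndufs6 faced Mrpl36, a mitochondrial ribosomal protein, and Atp5j, a subunit of the ATP synthase stalk, faced Gabpa, the DNA-binding subunit of GABP itself. An ETS word lay 144 bp downstream of the Atp5j start nearest to the summit (chr16:84834848-84834875, minus strand) and is shown as a word for the factor that the neighbour encodes.
Atp5j ETS: ggagccagggCCGGAAGTagaacggtgg
Gabpa and Atp5j took the same peak in each list, at a mean percentile of 86.4, and it cannot be assigned to 1 of the genes. Of the genes with the largest genotype differences, Ndufa7 faced Rps28, Ndufs1 faced Eef1b2 and Ndufb3 faced Fam126b. Whether those pairs took the same peak was not tested, so their differences may not belong to the respiratory gene alone. The median level was 92.5 for the 28 members with an opposite neighbour and 92.4 for the 43 without. Summits of the members lay at a median of 11 bp upstream of the nearest start, against 28 bp for all genes, and the median peak width was 1132 bp against 1148 bp.

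Further genes of the pathway that the symbol rule does not take were read from separate lists of cytochromes, assembly genes and regulators. Cycs, the somatic form of the mobile electron carrier cytochrome c, was called in all 6 lists at a mean of 98.8, and Cyct, its testis form, in none. Cyc1, which encodes cytochrome c1, a catalytic subunit of complex III, was called in all 6 at a mean of 85.1. Of the assembly genes, 6 of 6 for complex I, 3 of 4 for complex II, 5 of 6 for complex III, 8 of 12 for complex IV and 2 of 3 for complex V were called in all 6. Cox20, which helps insert a complex IV subunit, had no peak in any list and its TSS too is copied on a patch (MG4281_PATCH). Sdhaf1 had none either, without a copy.

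Of the 14 regulators, 10 were called in all 6 lists, with a median of 82.7. Nrf1 stood at 83.0, 83.8 and 82.9 in WT and 70.5, 84.0 and 75.5 in cKO, and Esrra, which encodes an estrogen-related receptor, at 84.3, 86.1 and 81.2 in WT and 67.4, 85.9 and 64.2 in cKO. In both the genotypes overlapped through cKO 2. Pprc1 stood at 84.9, 87.8 and 90.1 in WT and 76.9, 81.9 and 80.2 in cKO. Esrrg stood at 82.4, 84.3 and 89.6 in WT and 79.7, 79.6 and 74.7 in cKO. Pprc1 and Esrrg were lower in every cKO list, as were 9.66% of all genes. The genotypes overlapped in the rest of the 10. Ppargc1a, the coactivator of mitochondrial biogenesis, was lower, at a mean of 51.8. Among the genes that copy and transcribe mitochondrial DNA, Tfam stood at 90.1 to 98.3 by list, and Tfb2m and Polrmt at means of 97.3 and 96.4. limma called 0 of the genes in these lists.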

How the data were processed

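The authors trimmed reads with Trim Galore, aligned them to Ensembl GRCm38 with BWA in the nf-core ATAC-seq pipeline, and called narrow peaks per sample with MACS (effective genome size 2.6 Gb, release 95 annotation). No input control was described. The deposited lists give for each peak a fold, which is the authors' ratio of pileup to background, the authors' −log10 p and −log10 q values, a deposited score that is a whole-number form of −log10 q, and a summit. Only fold was ranked, and −log10 p and −log10 q served as alternatives. Read depth was not used here.

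Of each list, 61 to 92 peaks outside chromosomes 1 to 19, X and Y were left out. Genes and TSSs came from GENCODE M21 and sequence from GRCm38.p6 (RefSeq for promoters). A gene took its highest-fold promoter peak. cKO and WT were compared by limma 3.58.1 (trend, R 4.3.3) on percentiles, with Benjamini-Hochberg adjustment over all genes and a threshold of 0.05. The fit was first run on simulated data with independent noise and with shifts in the middle of the scale only. That run does not show which differences could be found at the levels of most members. The labels do not say that samples are separate animals, so p-values measure the spread between these samples. Scripts ran under Python 3.11.15 with pandas 2.3.3, pysam 0.24.0, statsmodels 0.14.6 and matplotlib 3.10.9.

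Named genes were those not called in all 6 lists, the 5 highest and 5 lowest, the extremes of each complex, the 5 largest differences in each direction and the isoform pairs. Members, lists and words were chosen with earlier results of these data known.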

Additional observations from a re-analysis of the deposited data

How the results depend on the processing

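The count of 71 members called in all lists was 71 to 74 when 1 list was left out. It was 65 with starts of protein-coding transcripts alone and 82 with a window from 500 bp upstream to 500 bp downstream. No alternative called a member by genotype, and the unadjusted p fell under 0.05 in 15 members and 2317 of all genes without cKO 2, against 4 and 600 with all lists. Leaving out cKO 3 called 1 gene of all genes and leaving out any other list called 0. The median level of 92.4 became 90.6 with lists of equal length and 69.5 when only promoter peaks were ranked. The last setting ranks the called genes among themselves, which puts all genes around the middle of the scale, so 69.5 and 92.4 are not on the same scale. It was 92.2 to 92.8 with 1 list left out. The median genotype difference of −0.57 points became 1.25 when peaks were ranked by −log10 p, where that of all genes was 0.54. It became 0.02 when only promoter peaks were ranked (all genes −0.77) and −1.33 with lists of equal length (all genes −2.89). With 1 list left out it was −1.09 to −0.22. Lists of equal length gave −20.1 at Atp5d, −18.4 at Ndufaf3, −17.1 at Ndufa7, −12.8 at Uqcr11 and −11.5 at Ndufs1. The genes with the largest rises were then at 3.98 to 11.3. In the ranking by −log10 p the difference at Ndufaf3 turned from −11.9 to 0.022. The other 118 of 119 values of the 10 genes with the largest differences kept their direction and stayed uncalled, but their size moved. Cox6b2 had no value with starts of protein-coding transcripts alone. Leaving out 1 list gave −17.4 to −6.95 at Ndufaf3, 5.42 to 16.6 at Ndufaf1, 3.25 to 9.82 at Cox6c, 5.48 to 15.5 at Cox6b2 and 0.37 to 7.14 at Atp5mpl. Ranking only promoter peaks gave −3.43 at Atp5d and 23.1 at Ndufaf1. With the replicate number as a block, 0 members were called. Deviations from the genotype mean had r = −0.35, −0.05 and 0.14 between samples of the same number, and −0.39 to 0.38 between samples of different numbers. With 3 lists per genotype, these values cannot show whether the numbers mark pairs. The numbers were not taken as pairs.

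In whole peaks the shares of members with a word became 38.0% for NRF1 (24.8% of all genes), 16.9% for YY1 (7.90%), 14.1% for ERR (4.78%), 33.8% for the GC box (58.0%), 8.45% for CRE (6.54%), 18.3% for NF-Y (23.4%), 25.4% for the TATA box (28.1%), 14.1% for AP-1 (18.6%) and 54.9% for ARID3 (54.2%). In the window from 250 bp before to 50 bp after the TSS the ARID3 share was 14.1% (10.4%) and the YY1 share 9.86% (3.71%). The all-gene share of YY1 lay within the members' interval at the summit and under it in both other windows. That of ERR lay under the interval in each window. Peak lists hold no value where no peak was called, so a missing call is not a level of 0.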
